A study of Homo sapiens with 6 samples.

Results

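Toll-like receptors are membrane proteins that recognise microbial lipids, lipoproteins, flagellin and nucleic acids. The genes described here are 5 of these receptors (TLR1, TLR2, TLR3, TLR4 and TLR6), the cytoplasmic adaptors MYD88 and TICAM1 (TRIF), and LY96 (MD-2) and CD14, which help present lipopolysaccharide to TLR4. They were taken by symbol: every probe set that names exactly 1 of these 9 genes in the platform annotation was used, which gave 15 of the 54675 probe sets on the array and 9 of the 19775 genes represented. TLR4 had 4 probe sets, TLR3 had 3, TLR6 had 2, and the other 6 genes had 1 each.

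RNA came from MCF10A, a non-tumorigenic human mammary epithelial line, in 2 stably transfected and puromycin-selected forms. The 3 control samples were from MCF10A-CV cells, which carry a non-targeting shRNA, and the 3 shFRY samples were from MCF10A-shFRY cells, which carry an shRNA against FRY, the gene of a large microtubule-associated protein. Per the labels, each form was 1 stable clone, and the samples of a form differed in passage number. A difference between the forms can therefore not be told apart from a difference between 2 clones, and every p-value rests on the spread among samples of the same clone. All cultures grew as monolayers in a mammary medium supplemented with EGF (20 ng/ml), insulin (10 µg/ml), hydrocortisone (5 µg/ml) and an extract of bovine pituitary, and were lysed at 70% confluence. The labels name no Toll-like receptor agonist.

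TLR2 pairs with TLR1 or TLR6 to bind bacterial lipoproteins, TLR4 with LY96 binds lipopolysaccharide, and TLR3 binds double-stranded RNA inside endosomes. MYD88 relays the signal of all of these except TLR3 through IRAK kinases and TRAF6 to NF-kB, while TICAM1 serves TLR3 and TLR4 and leads to interferon genes as well as NF-kB. Epithelial cells carry several of these receptors, but CD14 and the full set are best known from monocytes and macrophages.

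Values are deposited log2 signals. FRY was lower in shFRY at all 4 of its probe sets, and 1 of them, 204072_s_at, passed the threshold used throughout, an adjusted p of 0.05 in limma, a moderated linear model fitted over all probe sets (log2 difference -0.75, limma adjusted p = 0.0223). That call was lost without control sample 1 or 3, without shFRY sample 1 or 3, and with the beta-actin 3' minus 5' signal as a covariate, at -0.38 (limma adjusted p = 0.676). Sample medians lay between 3.02 and 3.06, and samples of a clone correlated at r = 0.992 to 0.995 over probe sets. The 8 measured epithelial markers all lay above the median probe set (3.04). Their mean signal was 10.03 to 10.11 in the control and 10.47 to 10.55 in the shFRY samples. In the fit over genes 4 of them rose and 2 fell: KRT14 went from 7.89 to 10.81 and KRT8 from 9.74 to 8.82. Of 8 fibroblast markers 4 lay above the median probe set, and of 6 endothelial markers 3, so such a level is not particular to epithelial genes. Of 9 measured monocyte and macrophage markers, 1 lay above the median probe set, and their mean signal was 2.32 to 2.42 in control and 2.19 to 2.37 in shFRY. LYZ, CD163 and FCGR1A had group means between 1.47 and 1.59, and PTPRC, the leukocyte antigen CD45, fell from 3.19 ± 0.42 to 2.13 ± 0.19 (SD, n = 3 each). Log2 values have no 0, and no detection calls were used, so a dim signal could not be separated from none. The beta-actin 3' minus 5' signal, a measure of RNA length and amplification, was 2.33, 2.52 and 2.71 in the control samples and 2.88, 2.89 and 2.84 in the shFRY samples, so it moved with the group (two-sided exact permutation p = 0.1, which is the lowest value possible with 3 samples in each group). The same measure for GAPDH overlapped between the groups. It was -0.09 ± 0.01 in control and -0.07 ± 0.03 in shFRY (SD, n = 3 each, exact permutation p = 0.4). With the beta-actin measure as a covariate, 1026 of the 19775 genes passed in place of 5889.

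Promoter sequences are shown for TLR2, which rose, for TLR4 and TLR3, which fell, and for the adaptor TICAM1, whose difference lay at the threshold. They are the 250 bases before the start site, from RefSeq (GRCh38.p14), 5′ to 3′ on the gene's strand. Of the 9 genes, 7 were used here. No window was listed for TLR1, LY96 was left out before the search, and both are named only. Both strands were searched for the NF-kB consensus site (by name), TGANTCA (AP-1), GAAANNGAAA (an interferon response-like element), GAGGAAG (a core bound by the myeloid factor PU.1 and other ETS proteins) and TTCNNNGAA (the STAT element). The last of these can overlap the interferon-type element, as it does in MYD88. Matches are in capitals. The windows are chr4:153684030-153684279, plus strand, chr9:117704153-117704402, plus strand, chr4:186068906-186069155, plus strand and chr19:4831713-4831962, minus strand.
TLR2: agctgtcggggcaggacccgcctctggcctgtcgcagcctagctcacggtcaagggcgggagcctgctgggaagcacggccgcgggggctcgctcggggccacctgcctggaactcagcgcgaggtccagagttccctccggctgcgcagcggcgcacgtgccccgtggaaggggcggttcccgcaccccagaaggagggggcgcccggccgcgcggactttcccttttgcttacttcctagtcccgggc
TLR4: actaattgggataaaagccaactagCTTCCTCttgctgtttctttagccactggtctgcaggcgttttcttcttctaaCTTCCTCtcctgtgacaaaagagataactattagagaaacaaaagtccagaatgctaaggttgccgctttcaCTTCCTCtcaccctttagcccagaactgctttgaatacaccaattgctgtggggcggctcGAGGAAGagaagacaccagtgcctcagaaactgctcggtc
TLR3: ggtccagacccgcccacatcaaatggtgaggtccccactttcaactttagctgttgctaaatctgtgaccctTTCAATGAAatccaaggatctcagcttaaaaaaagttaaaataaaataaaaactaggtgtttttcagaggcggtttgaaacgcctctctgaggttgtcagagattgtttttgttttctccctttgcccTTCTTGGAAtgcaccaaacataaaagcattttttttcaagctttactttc
TICAM1: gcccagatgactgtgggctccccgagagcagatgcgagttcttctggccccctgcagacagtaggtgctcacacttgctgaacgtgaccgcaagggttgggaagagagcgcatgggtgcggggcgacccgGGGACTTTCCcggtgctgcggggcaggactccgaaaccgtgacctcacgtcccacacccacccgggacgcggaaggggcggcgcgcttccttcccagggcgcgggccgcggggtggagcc

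TLR2, the only one of the 4 to rise in the fit over probe sets, held none of these letters in the window. TLR4 held 4 copies of GAGGAAG, beginning 225, 172, 100 and 40 bases before the start site, TLR3 held 2 STAT-type matches (178 and 50 bases before it) and TICAM1 held 1 NF-kB consensus match (120 bases before it). Over all 35116 RefSeq promoter windows of this length, 11.3% held GAGGAAG at least once and 5 windows (0.0142%) held it 4 times or more. The cut of 4 is the count in the TLR4 window, and repeats were counted for this motif alone, so that share is only a description. The NF-kB consensus was in 5.21%, TTCNNNGAA in 6.57%, TGANTCA in 6.57% and GAAANNGAAA in 3.02%. The windows of TLR6 and CD14 held 1 copy of GAGGAAG each, as did that of MYD88, and CD14 also held 1 copy each of TGANTCA and TTCNNNGAA. A match is a description of letters and shows no binding.

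TLR2 rose and 3 other receptors fell. Of the 15 probe sets, 1 was higher and 6 were lower in shFRY at the threshold (46.7%), against 10.9% higher and 12.2% lower, 23.1% in all, among the 54613 probe sets tested. The groups did not overlap for 8 of the 15, against 39.2% of all probe sets, and for 4 of the 9 genes, against 44.2% of all genes. In the fit with 1 probe set per gene, the one with the highest mean, 2 of the 9 genes were higher (TLR2 and TICAM1) and 3 lower (TLR1, TLR3 and TLR4), against 13.7% higher and 16.0% lower of 19775 genes. The median log2 difference of the 9 genes was -0.24, and that of all genes 0.03. The share of the genes called is above the background share, but 9 genes are few and the list was drawn up with results of these data known.

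**Figure D1:**
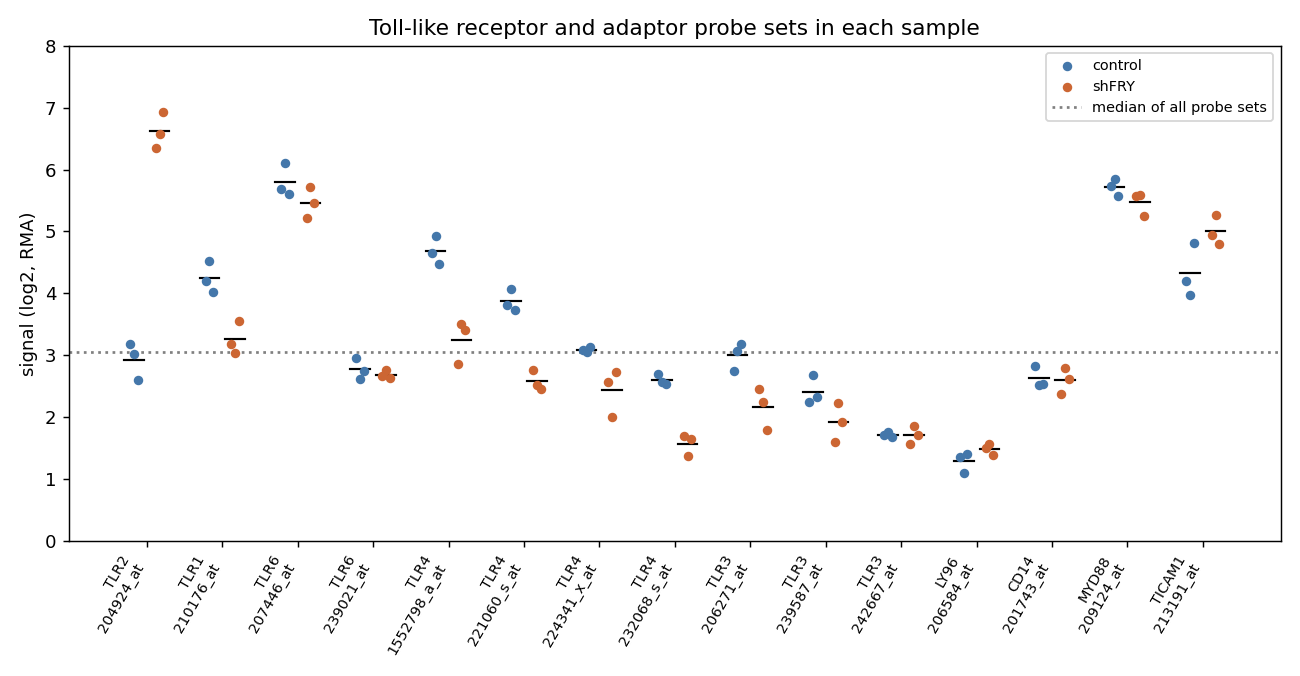
Signal (log2) of each of the 15 probe sets (horizontal axis, by gene) in the 3 control and 3 shFRY samples; each point is a sample, the short bar is the group mean and the dotted line the median of all probe sets (3.04). TLR2 lies near that line in control and between 6.35 and 6.93 in shFRY, while all 4 TLR4 probe sets and TLR1 are lower in shFRY without overlap.

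TLR2, which senses bacterial lipoproteins, had a signal of 3.17, 3.01 and 2.60 in control samples 1, 2 and 3 and 6.35, 6.58 and 6.93 in shFRY samples 1, 2 and 3. All shFRY samples were far above all control samples. The log2 difference was 3.69 (SE 0.19, limma adjusted p = 1.17e-05), a 12.9-fold rise with a 95% confidence interval of 9.52 to 17.6. It ranked 32nd among the rises of 19775 genes. In control cells the probe set lay at the 48.3rd percentile of all probe sets, in shFRY cells at the 80.4th, so the control signal was dim and the fold may be a lower limit. Only 1 probe set, 204924_at, represented TLR2. Among the 15 probe sets, its call alone was kept with the beta-actin covariate, at a log2 difference of 4.29 (limma adjusted p = 0.00128).

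The partners of TLR2 did not rise with it. TLR1, which joins TLR2 in binding triacylated lipoproteins, was at 4.20, 4.52 and 4.02 in the control samples and at 3.19, 3.04 and 3.56 in the shFRY samples. Every shFRY sample was below every control sample, and the log2 difference of TLR1 was -0.99 ± 0.18 (SE, limma adjusted p = 0.00457). The signal fell by 49.6%. TLR6, the partner for diacylated lipoproteins, was at 5.68, 6.11 and 5.60 in control and 5.21, 5.72 and 5.46 in shFRY at its brighter probe set 207446_at. These values overlapped, and the difference of -0.34 did not pass (95% confidence interval -0.74 to 0.07, limma adjusted p = 0.226). The dimmer TLR6 probe set, 239021_at, differed by -0.09 (95% confidence interval -0.36 to 0.18, limma adjusted p = 0.649). Within samples, TLR2 minus TLR1 moved from -1.32 ± 0.25 to 3.36 ± 0.19 and TLR2 minus TLR6 (207446_at) from -2.87 ± 0.32 to 1.16 ± 0.31 (log2, SD, n = 3 each). Both shifts, of 4.68 and 4.03, were without overlap (exact permutation p = 0.1 each). The offset between probe sets is not a ratio of RNA amounts, so only the shift has a meaning.

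TLR1, TLR6 and the related receptor TLR10 lie side by side on chromosome 4 in RefSeq. They were not called alike: TLR1 fell, TLR6 was not called, and TLR10 differed by -0.02 (limma adjusted p = 0.965 over genes), from 2.06 ± 0.17 to 2.04 ± 0.48 (SD, n = 3 each). TLR10 was dim, at the 23.5th percentile of all genes, where a fall would be hard to see. The difference of TLR1 minus TLR6 shifted by -0.65, from -1.55 ± 0.06 to -2.21 ± 0.42 (log2, SD, n = 3 each, exact permutation p = 0.1). TLR1 and TLR6 are close in sequence, and cross-hybridisation between their probe sets was not tested.

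TLR4, the lipopolysaccharide receptor, was lower in shFRY at all 4 of its probe sets, and no group overlapped at any of them. At 1552798_a_at, the brightest, the signal was 4.66, 4.93 and 4.47 in control and 2.85, 3.50 and 3.40 in shFRY. The log2 difference was -1.43 ± 0.19 (SE, limma adjusted p = 0.00117), a 2.70-fold reduction with a 95% confidence interval of 1.99 to 3.67. At 221060_s_at it was 3.81, 4.06 and 3.73 in control and 2.76, 2.52 and 2.44 in shFRY, and the difference of -1.29 had the smallest adjusted p of the TLR4 probe sets (limma adjusted p = 0.000324). Both of these began above the median probe set and ended near or below it.

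The other TLR4 probe sets were dimmer. At 232068_s_at the control samples had 2.69, 2.57 and 2.53 and the shFRY samples 1.69, 1.37 and 1.64, a difference of -1.03 (limma adjusted p = 0.000607), which ended at percentile 14.01 of all probe sets. At 224341_x_at the control samples had 3.08, 3.05 and 3.13 and the shFRY samples 2.57, 1.998 and 2.73, a difference of -0.65 (limma adjusted p = 0.0334). That last call was lost without any one of control samples 1, 2 or 3 or without shFRY sample 1 (adjusted p between 0.0524 and 0.0930). Depending on the probe set, the TLR4 signal decreased by 36.4% to 63.0%. The 1552798_a_at minus 224341_x_at difference shifted by -0.78 with overlap (exact permutation p = 0.2), so this pair was not shown to differ in its fall. Other pairs of TLR4 probe sets were not compared.

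**Figure D2:**
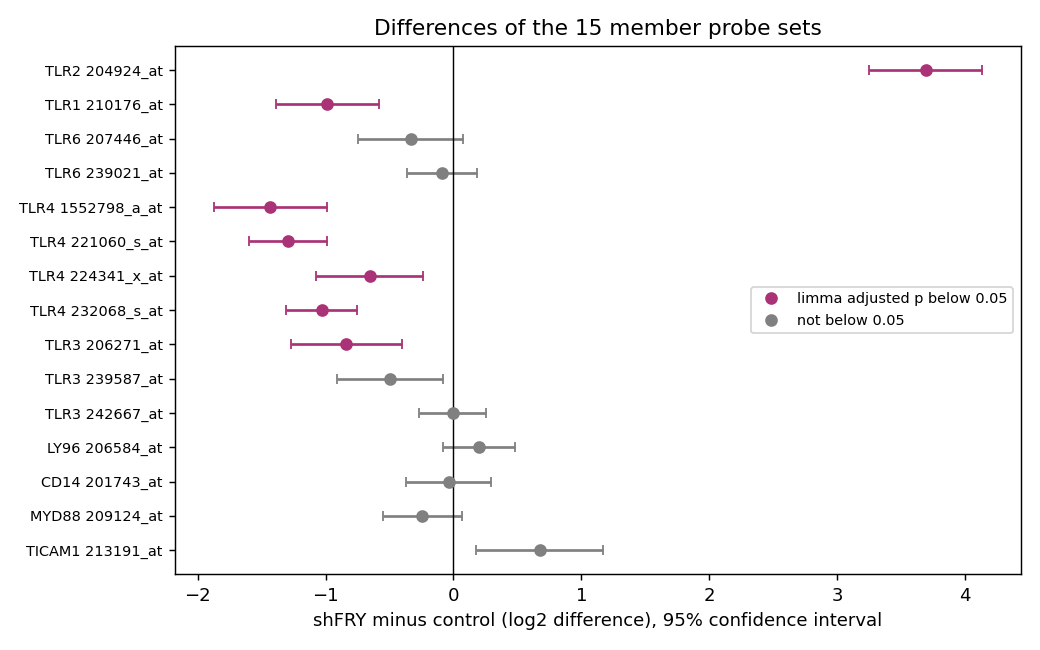
Log2 difference, shFRY minus control, of each of the 15 probe sets with its 95% confidence interval from limma (n = 3 samples per group); coloured points have an adjusted p below 0.05. TLR2 lies farthest to the right at 3.69, and the 4 TLR4 probe sets, TLR1 and TLR3 206271_at are coloured on the left; the intervals of TICAM1 and of TLR3 239587_at are also clear of 0, but their adjusted p-values are not below 0.05.

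TLR3, the endosomal receptor for double-stranded RNA, was lower at 1 of its 3 probe sets. At 206271_at, the brightest, the control samples had 2.74, 3.06 and 3.19 and the shFRY samples 2.45, 2.24 and 1.79. The groups were apart, and the log2 difference was -0.84 ± 0.19 (SE, limma adjusted p = 0.0138). Without control sample 3 this call was missed at an adjusted p of 0.0506 in limma. At 239587_at the values were 2.24, 2.67 and 2.32 in control and 1.60, 2.22 and 1.92 in shFRY. These groups were apart too, by a narrow margin, but the difference of -0.50 did not pass (limma adjusted p = 0.0874). Without shFRY sample 2 it passed, at -0.65 (limma adjusted p = 0.0397). At 242667_at the signal was 1.71, 1.76 and 1.67 in control and 1.55, 1.86 and 1.71 in shFRY, a difference of -0.01 (95% confidence interval -0.27 to 0.26). This probe set lay at the 21.1st percentile of all probe sets. The 206271_at minus 242667_at difference shifted by -0.83 (exact permutation p = 0.1), without overlap. The mean of the 3 TLR3 probe sets gave -0.45 (limma adjusted p = 0.0180 over genes).

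LY96 and CD14, which hand lipopolysaccharide to TLR4, were dim in all 6 samples and were not called. LY96, the extracellular subunit of the TLR4 complex, had 1.35, 1.09 and 1.41 in control and 1.503, 1.57 and 1.38 in shFRY, with overlap. Its difference of 0.20 had a 95% confidence interval of -0.08 to 0.48 (limma adjusted p = 0.292), and its mean lay at the 7.48th percentile of all probe sets. CD14, the lipopolysaccharide coreceptor, had 2.83, 2.52 and 2.54 in control and 2.37, 2.79 and 2.61 in shFRY, a difference of -0.04 (95% confidence interval -0.37 to 0.29, limma adjusted p = 0.889). Each gene rested on 1 probe set.

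Of the adaptors, MYD88 was not called and TICAM1 lay at the threshold. MYD88, the adaptor of most of these receptors and of the interleukin-1 receptor, had 5.73, 5.85 and 5.58 in control and 5.58, 5.60 and 5.25 in shFRY. The samples overlapped, and the difference of -0.24 did not pass (95% confidence interval -0.55 to 0.06, limma adjusted p = 0.246). TICAM1, the adaptor of TLR3 and TLR4 that leads to interferon genes, had 4.20, 3.98 and 4.81 in control and 4.95, 5.26 and 4.80 in shFRY. Control sample 3 lay at the level of the lowest shFRY sample, so the groups overlapped. The difference of 0.67 (SE 0.22) missed the threshold over probe sets (limma adjusted p = 0.0580) and passed over genes (limma adjusted p = 0.0479). It passed over probe sets without control sample 3, at 0.91 (limma adjusted p = 0.0103), and was at 0.05 with the beta-actin covariate. The call over genes was lost without control sample 1 or 2 and without shFRY sample 1, 2 or 3. It was also lost with array weights (limma adjusted p = 0.0503), with a replicate block and with the beta-actin covariate.

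The beta-actin measure was also fitted for the falls. With it as a covariate, none of the 6 lower probe sets passed (limma adjusted p between 0.0660 and 0.476). Their differences were then -0.74 for TLR1, -1.33 for TLR3 and -0.62 to -1.24 for TLR4. The measure did not overlap between the groups, so a fit holding both can only partly separate it from the group. The lost calls therefore cannot show whether RNA length had a part in the falls. PTPRC fell in the same samples as TLR4, TLR1 and TLR3, and it was the only one of the 9 measured monocyte and macrophage markers to be called. The other 8 were not called, with TYROBP at 0.28, AIF1 at 0.25, ITGAM at -0.04 and CSF1R at -0.33. The part of PTPRC in these results was not tested, and in bulk RNA fewer cells of a type and less RNA per cell cannot be told apart.

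Other genes of the pathway were taken from 8 lists of textbook roles with 106 genes, of which 98 were measured. Of these, 38 rose and 10 fell, 49.0% against 29.8% of all genes, with a median log2 difference of 0.23. The total includes a list of MYD88 and NF-kB targets whose 15 measured genes all rose. Those rises were known when that list was drawn up, so the pooled share is a description. Among receptors outside the 9 genes, TLR5, the flagellin receptor, fell from 3.53 ± 0.26 to 3.06 ± 0.07 (SD, n = 3 each; log2 difference -0.47, limma adjusted p = 0.0348), and TLR7, TLR8, TLR9 and TLR10 were not called. The TLR5 call was lost without control sample 1 or 2 and without shFRY sample 1, 2 or 3 (adjusted p between 0.0643 and 0.0861). Of 11 accessory and folding proteins, 1 fell and 0 rose (median -0.07). It was TIRAP, the bridging adaptor that brings MYD88 to TLR2 and TLR4, which fell from 5.98 ± 0.18 to 5.21 ± 0.12 (SD, n = 3 each; -0.78, limma adjusted p = 0.00232). 3 of the 4 TIRAP probe sets were called lower.

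**Figure D3:**
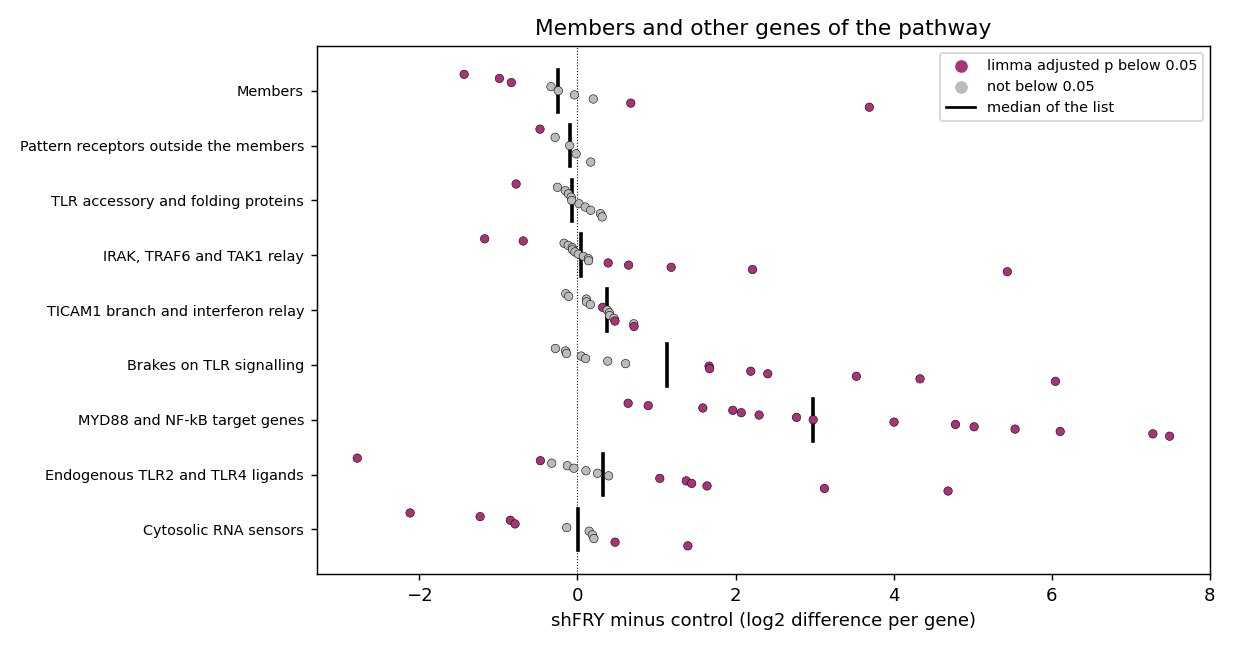
Log2 difference, shFRY minus control, of each measured gene (points) in the 9 genes described here (top row, "Members") and in the 8 lists of other pathway genes; coloured points have a limma adjusted p below 0.05 and vertical bars are list medians. The NF-kB target list has all 15 genes on the right, and the TICAM1 branch stays within about 1 log2 unit of 0.

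The relay from receptor to NF-kB was mixed. Of 16 genes of the IRAK, TRAF6 and TAK1 relay, 5 rose and 2 fell (median 0.04). That is 43.8% called, against 29.8% of all genes. IRAK2, a kinase-like scaffold of late MYD88 signalling, rose most (5.44), followed by the ubiquitin ligase gene PELI1 (2.21), while PELI3 fell (-1.17). Of 3 probe sets each, 2 of IRAK2 and 1 of PELI1 were called higher, and the means of the probe sets gave 2.34 and 1.09, which passed. TAB2, which links TRAF6 to the kinase TAK1, rose by 1.19, but by 0.17 with no call when probe sets ending in _s_at or _x_at were left out. IRAK1 and TRAF6 were not called, at -0.12 and 0.14.

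Of 13 genes of the TICAM1 branch and its interferon output, 3 rose and 0 fell, with a median of 0.38. The called share of 23.1% lay below the 29.8% of all genes. TRAF3 (0.72), the interferon regulatory factor gene IRF1 (0.47) and the kinase gene TBK1 (0.32) rose. TBK1 passed over genes only, as its 1 probe set was not called in the fit over probe sets. The TBK1 call was lost without any one of the 6 samples, and IRF1 was lost without control sample 3 (limma adjusted p = 0.0672). The outputs of this branch were not called: IFNB1 was at 1.28 ± 0.06 and 1.40 ± 0.12, CXCL10 at 1.76 ± 0.26 and 1.92 ± 0.16, and IFIT1 at 1.78 ± 0.16 and 1.67 ± 0.10 in control and shFRY (SD, n = 3 each). These signals were dim in both clones. CCL5 was at 2.81 ± 0.10 and 3.52 ± 0.71 (limma adjusted p = 0.121). IFNB1, CXCL10, IFIT1, CCL5, IRAK1 and TRAF6 are named here for their role, outside the naming rule.

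All 15 measured genes of the list of MYD88 and NF-kB targets rose, with a median of 2.98, against 13.7% of all genes rising. CXCL1 (7.49), CXCL3 (7.28), CXCL2 (6.11) and CXCL8 (5.54), neutrophil chemokine genes, led it. The value of CXCL2 depended on the probe set, at 3.59 as the mean of its 3 probe sets and 2.74 without those ending in _s_at or _x_at, so its place in this order is not fixed. These rises were known when the list was drawn up, so the count is a description. Among 14 brakes on the pathway, 7 rose and 0 fell (median 1.14). That is 50% called, against 13.7% higher and 16.0% lower of all genes. This list too was drawn up with results of these data known, so its count is a description. TNIP3 (6.05), the ubiquitin-editing enzyme gene TNFAIP3 (4.33), the transcription factor gene ATF3 (3.53, and 1.72 as the mean of its 3 probe sets) and the deubiquitinase gene CYLD (2.41) rose, and TOLLIP and SIGIRR, which act near the receptors, were at -0.15 and -0.14 with no call.

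Of 14 genes for proteins described as endogenous ligands of TLR2 or TLR4, 6 rose and 2 fell (median 0.32). That is 57.1% called, against 29.8% of all genes. The alarmin genes S100A8 (4.69) and S100A9 (1.64) and the fibronectin gene FN1 (3.12) rose, while the proteoglycan gene DCN fell (-2.79). With probe sets ending in _s_at or _x_at left out, another probe set stood for FN1, at 0.52, and for DCN, at -1.45, and the mean of the DCN probe sets gave -1.54. All of these passed. Of 10 cytosolic RNA sensors and their partners, some of which share double-stranded RNA as a ligand with TLR3, 2 rose and 4 fell (median 0.01). That is 60% called, against the same 29.8%. RIGI rose (1.40), and OAS1 (-2.12), OAS3 (-1.23) and the mitochondrial adaptor gene MAVS (-0.85) fell. All probe sets of OAS1, OAS3 and MAVS were called lower and all 3 of RIGI higher. Without probe sets ending in _s_at or _x_at, RIGI was at 0.71 and OAS1 at -1.40, and both passed. With the beta-actin covariate TLR5 (-0.04), TIRAP (-0.75), IRF1 (0.66), TBK1 (0.32), PELI3 (-1.40), TRAF3 (0.59), RIGI (1.59), OAS3 (-1.63) and MAVS (-0.69) did not pass.

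The genes whose values followed those of TLR2 most closely were HS3ST3A1, SLC7A2, COXFA4L3, LCN2 and BAMBI. The measure was the root mean square difference over the 6 samples between each gene's deviations from its control mean and those of TLR2, and it was 0.23 for HS3ST3A1 and 0.32 for BAMBI on the log2 scale. HS3ST3A1, a heparan sulfate sulfotransferase gene, went from 2.66 ± 0.09 to 6.19 ± 0.11, and the lipocalin gene LCN2 from 3.82 ± 0.32 to 7.83 ± 0.05 (SD, n = 3 each). With 2 groups of 3 samples, this likeness is mostly a like difference between the clones.

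**Figure D4:**
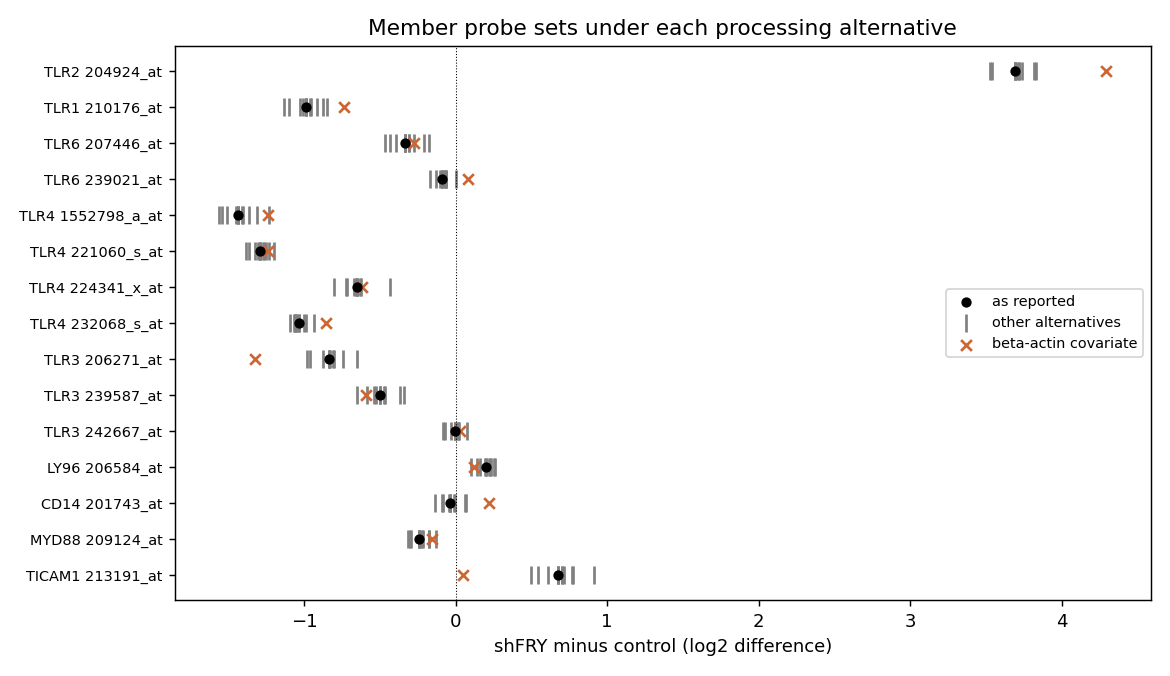
Log2 difference, shFRY minus control, of each of the 15 probe sets as reported (black), under the other processing alternatives and with each sample left out (grey ticks), and with the beta-actin covariate (crosses). TLR2 stays between 3.53 and 4.29 and the TLR4 probe sets stay below 0, while TICAM1 drops to 0.05 with the covariate.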

How the data were processed

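RNA of 6 samples was hybridised to 1-colour arrays, 1 per sample. The deposited values are log2 signals made with RMA, per the submitters' processing notes. No version or settings of RMA are given in these sources. RMA compresses differences of dim probe sets, and a change shared by all genes would not be visible. Probe sets were named through the platform annotation, with symbols updated through Entrez IDs to RefSeq (GRCh38.p14); those naming several genes or none stayed out of the gene-level fit. The groups, from the sample titles, were compared with limma 3.58.1 in R 4.3.3 (lmFit, eBayes, 4 residual degrees of freedom), over 54613 probe sets other than controls and over 19775 genes, each represented by its probe set with the highest mean, with Benjamini-Hochberg adjustment over all. Scripts were tested on simulated data. Of each list, up to 4 called genes with the largest differences were named, and 5 genes for likeness to the called gene with the largest difference. The genes and lists were chosen with earlier results of these data known. Same-numbered samples did not deviate together (r = 0.0030, -0.0043 and 0.0388 over probe sets), so the numbers were not taken as pairs. Precision is limited by how few arrays there are. The alternatives were other normalizations, moderation, filters, probe set choices, weights, a replicate block, a beta-actin covariate and each sample left out.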

Additional observations from a re-analysis of the deposited data

How the results depend on the processing

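The counts were 7 of 15 probe sets, 5 of 9 genes and 48 of 98 pathway genes. With the beta-actin 3' minus 5' covariate they were 1, 1 and 27. Under the other alternatives they stayed within 1.5 times: 5 to 8 probe sets, 4 or 5 genes and 34 to 55 pathway genes, and with each sample left out in turn 6 to 8, 4 or 5, and 44 to 46. With the replicate number as a block they were 8, 4 and 47: TLR3 239587_at passed (limma adjusted p = 0.0289), the gene-level calls of TICAM1 (0.0826) and TBK1 (0.0722) and that of FRY 204072_s_at (0.0522) were lost, and FRY 1555904_at (0.0263) and 214319_at (0.0365) passed. TICAM1 passed over probe sets with another normalization, with trend and robust options and with the filter on mean signal (0.0386 to 0.0467). The calls of TLR2, TLR1 and the TLR4 probe sets other than 224341_x_at were lost under no alternative that tested them except, for TLR1 and TLR4, the covariate. The cause of the covariate's effect was not tested. No direction reversed among the called probe sets of the 9 genes, FRY 204072_s_at and the 25 pathway genes run singly; other called pathway genes were run only as part of the counts. The filter on mean signal leaves out the dim ones, so it gives no value for 232068_s_at, 206271_at or other dim probe sets. Dim signals limit LY96, CD14 and the third TLR3 probe set.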
